A study of Homo sapiens with 6 samples.

Results

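The transcripts of 5 proteins that are known substrates of SPOP in renal carcinoma or in Hedgehog signalling were followed: DUSP7, SETD2, LATS1, GLI2 and GLI3. They were matched by gene symbol to a list of substrates and make up 5 of the 24551 symbols in the expression tables. Each is listed once. Expressed genes were taken as those that averaged 1 FPKM or more across the 6 libraries, which left 11865. The 5 are among them, but GLI3 is there through its values in 769-P, and its mean in DU145 was 0.277 FPKM. FPKM, the number of fragments divided by transcript length and by the mapped fragments of the library, is a level per length of transcript and can be set side by side between genes.

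SPOP is the substrate-binding subunit of a ubiquitin ligase built on the scaffold CUL3 and the RING protein RBX1. It recruits proteins through its MATH domain, and their ubiquitin chains send them to the proteasome. SPOP thus acts on its substrates as proteins, and the data below are on messenger RNA alone. By western blot the study found SETD2 protein raised by SPOP knockdown in renal lines, 769-P among them, but not in DU145. It did not measure DUSP7, LATS1, GLI2 or GLI3 protein, so control of these by SPOP in the 2 lines is not known here. GLI2 and GLI3 are the zinc finger transcription factors at the end of the Hedgehog pathway, where ligand binding to PTCH1 frees SMO and full-length GLI proteins activate target genes. LATS1 is a kinase of the Hippo pathway that holds the coactivator YAP1 in the cytoplasm. DUSP7 is a phosphatase that removes the activating phosphates of ERK, and SETD2 is the methyltransferase that trimethylates lysine 36 of histone H3, a mark of transcribed gene bodies.

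Poly(A) RNA was sequenced from DU145, a prostate cancer line, and from 769-P, a renal cell adenocarcinoma line. In either line there were 3 libraries, of which the first received the control siRNA (NC), the next SPOP siRNA 1 (si1) and the last SPOP siRNA 2 (si2). The 4 groups are therefore DU145 NC (n = 1), DU145 siSPOP (n = 2), 769-P NC (n = 1) and 769-P siSPOP (n = 2). The methods of the study state 2 biological replicates for each sample, while the labels give 1 library per siRNA and control, so the siRNAs served as the replicates of the knockdown and the controls have none. The p-values measure only the spread between these libraries, which may be technical in part.

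SPOP itself (GRCh37 chr17:47676246-47755525, minus strand) was examined first. It had 16.1 FPKM in the DU145 control, 2.77 with si1 and 2.96 with si2, which left 17.2% and 18.4% of the control level. The 769-P control had 11.6 FPKM, si1 1.53 and si2 1.39, which left 13.2% and 12.0%. Both siRNA libraries lay far below the control of their line, although with limma and Benjamini-Hochberg adjustment SPOP stayed at an adjusted p of 0.134 in DU145 and 0.0948 in 769-P.

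The 6 libraries differed in ways that the groups do not explain. Of 366 olfactory receptor genes, which these cells should not express, 287 were above 0 in the control of DU145 and 237 in the si2 library of 769-P, at a mean of 0.345 and 0.227 FPKM, against 3 to 5 genes in each of the other libraries. Judged by the commonest ratio among low values, depth relative to the 769-P control ranged from 0.674 to 1.40. Changes in 769-P also followed the GC content of the gene, with a Spearman coefficient across 10537 genes of 0.368 for si1 and 0.438 for si2, against 0.185 and 0.132 in DU145; genes are not independent replicates and this is a description. Among the lineage markers, 769-P had PAX8 at 106 to 125 FPKM and PAX2 at 4.91 to 6.42, but CA9 was listed at 0 in all 3 libraries. DU145 had KRT8 at 472 to 586 FPKM, but the prostate markers KLK3, FOLH1 and HOXB13 did not exceed 0.312 and TMPRSS2 was listed at 0.

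The substrates were transcripts of low to middling abundance. In the 769-P control, GLI2 had 6.54 FPKM, DUSP7 6.40, SETD2 5.39, LATS1 4.79 and GLI3 2.42, and the share of expressed genes that lay lower ran from 22.3% for GLI3 to 42.9% for GLI2. In the DU145 control, DUSP7 had 7.24 FPKM, SETD2 6.11, LATS1 5.57, GLI2 4.65 and GLI3 0.478. Over its 3 libraries 769-P held most GLI2, at 9.27 ± 2.76 FPKM (SD, n = 3), followed by DUSP7 at 5.31 ± 1.02, SETD2 at 4.98 ± 0.422, LATS1 at 3.84 ± 0.852 and GLI3 at 1.97 ± 0.430. The ranges of the neighbours DUSP7 (4.37 to 6.40), SETD2 (4.54 to 5.39) and LATS1 (3.13 to 4.79) overlapped in 769-P, whereas GLI2 (6.54 to 12.1) lay above them and GLI3 (1.56 to 2.42) below. In DU145 the order was SETD2 at 6.30 ± 0.190 FPKM (SD, n = 3), DUSP7 at 6.12 ± 2.39, GLI2 at 4.67 ± 0.578, LATS1 at 4.44 ± 1.12 and GLI3 at 0.277 ± 0.222. There the range of DUSP7 (3.37 to 7.75) overlapped those of SETD2, GLI2 and LATS1, SETD2 (6.11 to 6.49) lay above GLI2 (4.11 to 5.26) and LATS1 (3.33 to 5.57), and GLI3 (0.0386 to 0.478) was the lowest in each library.

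**Figure D1:**
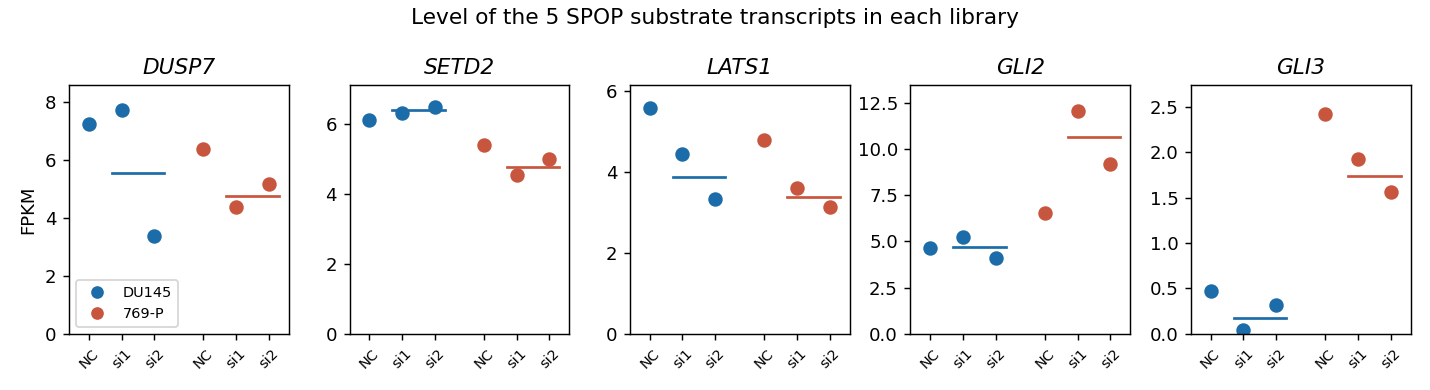
FPKM of each substrate transcript (y axis, linear, from 0, with its own scale in each panel) in the 6 libraries (x axis: NC, si1 and si2 of DU145 in blue and of 769-P in red). Points are single libraries and horizontal lines the mean of the 2 siRNA libraries of a line. GLI2 in 769-P is above its control with both siRNAs (12.1 and 9.20 against 6.54), and LATS1 and GLI3 are below the control in both lines. The DU145 control level of GLI3 (0.478 FPKM) is close to the mean of olfactory receptor genes in that library (0.345).

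Over the 3 libraries of a line, control and siRNA together, GLI2 in 769-P had 1.98 times the DU145 mean. Its lowest 769-P library (6.54 FPKM) lay above the highest DU145 library (5.26). Between the controls alone (n = 1 each) the ratio was 1.41, at 6.54 against 4.65 FPKM, and both siRNA libraries of 769-P were above their control. On the log2(FPKM + 1) scale the difference over both conditions was 0.72 for GLI2 (standard error 0.21, 95% interval 0.21 to 1.24, adjusted p = 0.0385), by limma with Benjamini-Hochberg adjustment over 11865 genes. The GLI2 difference did not pass without one of the siRNA libraries, whichever was left out, at an adjusted p of 0.0813 to 0.139. DUSP7, SETD2 and LATS1 did not pass: -0.13 for DUSP7 (adjusted p = 0.768), -0.26 for SETD2 (adjusted p = 0.273) and -0.17 for LATS1 (adjusted p = 0.520). Since 42.1% of all genes tested passed in this comparison, 1 of these 4 is no more than the background. GLI3 had 1.56 to 2.42 FPKM in 769-P and 0.0386 to 0.478 in DU145, without overlap, and these levels are a description only, since GLI3 was among the expressed genes through its 769-P values. The lines differ in tissue, donor and culture, and these cannot be told apart here.

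After knockdown of SPOP, 0 of the 5 substrate transcripts differed from the control at 1.5-fold with both siRNAs in either line. A gene was called where both siRNA libraries of a line differed from its control by at least 1.5-fold on log2(FPKM + 1) in the same direction, and "rose" and "fell" are used below for such genes. Of the 5 substrates, 0 rose and 0 fell in DU145, where 4.72% of all genes tested rose and 1.19% fell. In 769-P 0 rose and 0 fell as well, where 3.6% of all genes rose and 3.73% fell. By limma, 0 of 5 passed an adjusted p of 0.05 in DU145 and 0 of 5 in 769-P, with 0.135% and 0.101% of all genes passing, and 0 of 5 had an unadjusted p under 0.05 in either line (744 and 827 of all genes did). With 1 control against 2 siRNA libraries, an exact permutation test cannot go below p = 0.333 for a single transcript.

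The median of the 5 mean log2 changes was -0.34 in DU145 and -0.32 in 769-P, and the median of all genes tested was 0.09 and -0.03. In both lines that median is the value of GLI3, whose DU145 control level is close to the mean of olfactory receptor genes. The 5 ran from -0.44 (LATS1) to 0.06 (SETD2) in DU145 and from -0.41 (LATS1) to 0.61 (GLI2) in 769-P. A shift of the 5 as a set was not tested. LATS1 and GLI3 were below the control in all 4 siRNA libraries, and 0 of 5 were above in all 4. For GLI3 the sign in DU145 depends on how low values are treated. Of all genes tested, 13.6% were below in all 4 libraries. The pair of siRNAs of a line differed by a median of 0.27 (DU145) and 0.23 (769-P) on the log2 scale over all genes, irrespective of sign.

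**Figure D2:**
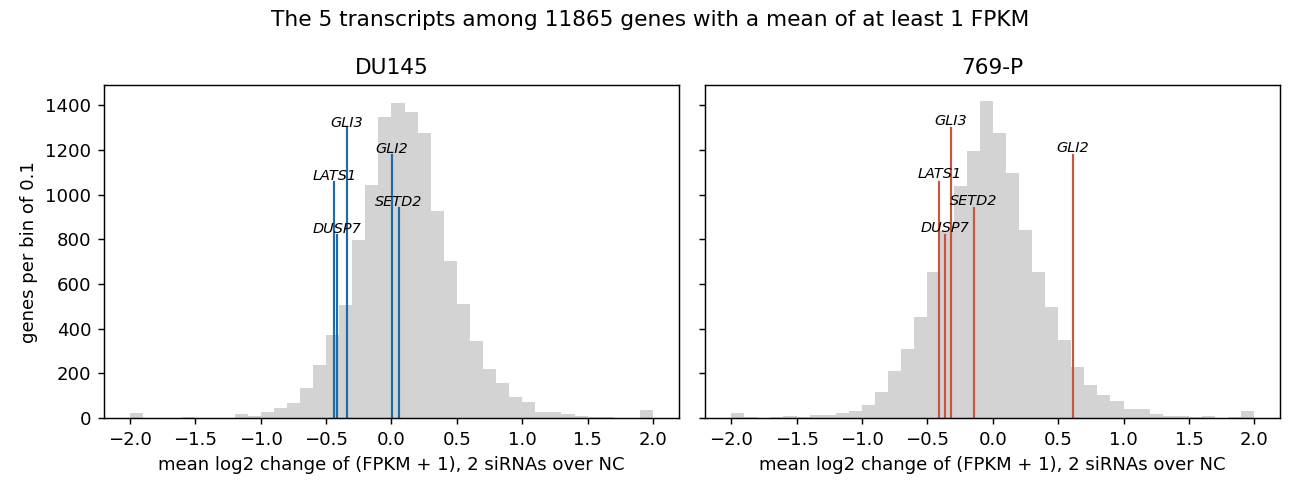
Histograms of the mean log2 change of FPKM + 1 with the 2 siRNAs over NC (x axis, bins of 0.1, with values beyond the ends gathered in the last bins) for 11865 genes (y axis, genes per bin) in DU145 and 769-P, with the 5 substrates as vertical lines whose height carries no value. In DU145 the lines run from -0.44 (LATS1) to 0.06 (SETD2), and in 769-P from -0.41 (LATS1) to 0.61 (GLI2).

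**Figure D3:**
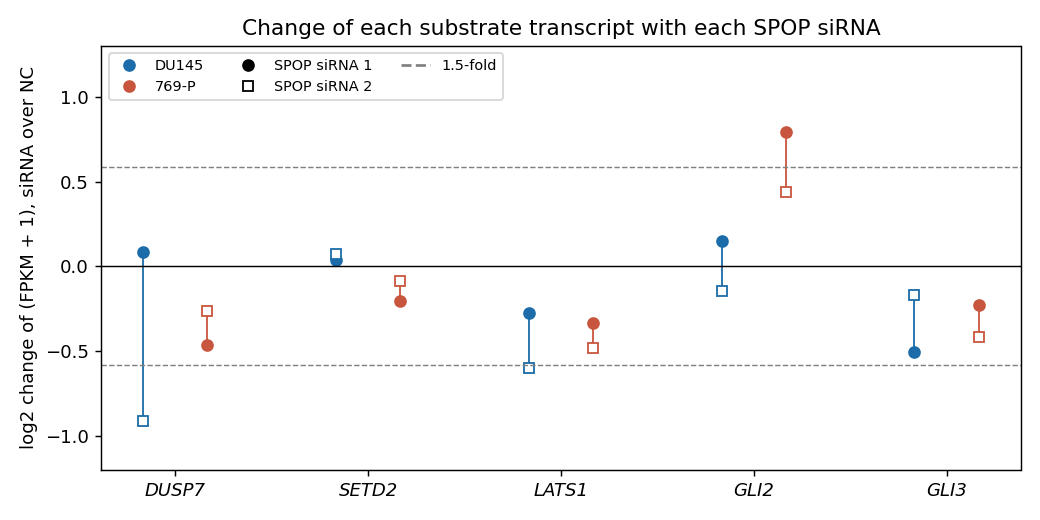
Log2 change of FPKM + 1 over the NC library of the line (y axis) for each substrate (x axis), with si1 as filled circles and si2 as open squares, DU145 in blue and 769-P in red, a line joining the siRNAs, and dashed lines at 1.5-fold. In neither line do both siRNAs of a substrate lie past the same dashed line; DUSP7 in DU145 has the widest gap, from 0.09 to -0.91.

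GLI2 (GRCh37 chr2:121493199-121750229, plus strand) came nearest to a call, in 769-P. Its level was 6.54 FPKM in the control, 12.1 with si1 and 9.20 with si2, so that the siRNA libraries averaged 10.6 ± 2.03 FPKM (SD, n = 2). Both lay above the control, by 1.84 and 1.41 times, but si2 missed 1.5-fold. The mean log2 change was 0.61 (standard error 0.29, 95% interval -0.12 to 1.35), with an adjusted p of 0.717 and an unadjusted p of 0.0844 by limma. The GLI2 transcript is GC-rich (61.6%, more than 79.2% of genes), and after the trend with GC content was removed, an alternative added after the values were seen, the change was 0.43. The part of GC content in the result was not tested beyond that. In DU145 GLI2 had 4.65 FPKM in the control, 5.26 with si1 and 4.11 with si2, on either side of the control, for a mean log2 change of 0.00 (95% interval -0.73 to 0.73, adjusted p = 1.0 by limma).

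GLI3 (GRCh37 chr7:42000547-42303699, minus strand), the family member that is mostly processed into a repressor in the absence of ligand, lay below its control with both siRNAs in 769-P. The level was 2.42 FPKM in the control, 1.92 with si1 and 1.56 with si2. The mean log2 change was -0.32 (95% interval -1.01 to 0.36, adjusted p = 0.793 by limma). The DU145 values were 0.478 FPKM in the control, 0.0386 with si1 and 0.314 with si2. That control level is close to the mean of olfactory receptor genes in the same library (0.345 FPKM), and with this background subtracted the mean log2 change of GLI3 in DU145 moved from -0.34 to 0.04. With a pseudocount of 0.1 in place of 1 FPKM it was -1.27, so the size and sign in DU145 depend on how low values are treated. In the si1 and si2 libraries of DU145 the olfactory receptor mean was 0.0055 and 0.0053 FPKM, below GLI3 in both.

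The Hedgehog genes around the GLI factors differed widely in level. Of the 21 listed, 11 averaged 1 FPKM or more, and the highest was CSNK1A1, at 68.9 to 88.1 FPKM. The output genes of the pathway were low: PTCH1, the receptor and a direct GLI target, had 0.833 to 1.11 FPKM over the 6 libraries, GLI1, a target and activator, had 0.124 to 0.874, and HHIP, a target that binds the ligand, did not exceed 0.0591. PTCH1 was at 0.972 FPKM in the 769-P control, 1.11 with si1 and 0.833 with si2, on either side of the control. GLI1 was at 0.124, 0.175 and 0.547 FPKM in the same order, above its control with both siRNAs. In that si2 library the mean of olfactory receptor genes was 0.227 FPKM. PTCH1, GLI1 and HHIP averaged under 1 FPKM and were not tested, so the response of the pathway to GLI2 was not tested. Of the ligands, SHH had 2.86 FPKM in the 769-P control, 2.96 with si1 and 3.93 with si2, and in DU145 1.40, 3.46 and 0.440. IHH and DHH did not exceed 0.307 FPKM in any library.

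The promoter of PTCH1 is shown because it carries the one GLI binding motif found near the Hedgehog genes, and PTCH1 is a transcript that GLI activity is known to raise. The stretch comes from RefSeq on GRCh38.p14, chr9:95509420-95509448, minus strand, and is written in the direction of the gene. The capitals mark the reverse complement of GACCACCCA, with its first base at -172 from the start site.
PTCH1: gttgcctaccTGGGTGGTCtctctacttt
Windows ran from 250 bases before to 50 bases after each start site and were searched on both strands for exact matches. Of 35116 such windows 83 (0.236%) held the motif. Of the 26 substrates and Hedgehog genes, 22 had a window, and 1 of these genes, PTCH1, had a match. Of the 4 substrates with a window (DUSP7, SETD2, LATS1 and GLI2), 0 had one. A match of letters does not show that a GLI protein binds there in these cells.

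Among the 21 Hedgehog genes listed beside the substrates, 11 were expressed by the measure above, and 1 rose and 0 fell in DU145, with 0 and 0 in 769-P. For all genes tested the shares were 4.72% and 1.19% in DU145, and 3.6% and 3.73% in 769-P. The Hedgehog gene that rose was HHAT, the acyltransferase that adds palmitate to Hedgehog ligands, with 1.89 FPKM in the DU145 control, 4.37 with si1 and 4.04 with si2. Its log2 changes were 0.89 and 0.80, well apart from the control and close to each other, at an adjusted p of 0.786 by limma (unadjusted p = 0.0334). In 769-P HHAT had 0.569 FPKM in the control, 1.73 with si1 and 0.957 with si2 (log2 changes 0.80 and 0.32). The changes of HHAT in the lines differed by 0.29 (adjusted p = 0.999 for the interaction by limma). SMO, the signal transducer, had 6.34 FPKM in the 769-P control, 12.3 with si1 and 8.72 with si2 (log2 changes 0.86 and 0.41), a pattern near that of GLI2, and it has nearly the same GC content (61.7%). In DU145 SMO changed by 0.44 and 0.24. DISP1, which releases the ligand, had the values 1.34, 0.456 and 0.926 FPKM in DU145 and 3.46, 5.98 and 2.99 in 769-P, in the order NC, si1 and si2. The median log2 change of the 11 genes was 0.18 in DU145 and 0.11 in 769-P. By limma 0 of 11 passed in either line, with 1 (HHAT) at an unadjusted p under 0.05 in DU145 and 0 in 769-P (744 and 827 of all 11865 genes).

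LATS1 (GRCh37 chr6:149979289-150039241, minus strand) was lower with each siRNA in both lines. The DU145 control had 5.57 FPKM, si1 4.43 and si2 3.33. The 769-P values were 4.79, 3.60 and 3.13, so that the control was the highest library of each line and si2 the lowest. The siRNA libraries averaged 3.88 ± 0.776 FPKM (SD, n = 2) in DU145 and 3.37 ± 0.328 in 769-P. The mean log2 change was -0.44 in DU145 (standard error 0.27, 95% interval -1.13 to 0.25, adjusted p = 0.837) and -0.41 in 769-P (standard error 0.27, 95% interval -1.10 to 0.28, adjusted p = 0.750), both by limma. Only si2 in DU145 was past 1.5-fold, at -0.60. LATS1 is AT-rich, with 39.0% GC, and 11.6% of genes are lower. With the GC trend removed the change was -0.46 in DU145 and -0.16 in 769-P, and the part of GC content in the 769-P value was not tested further. Exons of LATS1 overlap a lncRNA on the plus strand, and without stated strand information reads of the pair cannot be told apart.

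The Hippo list held 25 genes, and all were expressed. In DU145 0 rose and 0 fell, and in 769-P 1 rose and 1 fell, with median log2 changes of 0.09 and 0.05. Among all genes tested, 4.72% rose and 1.19% fell in DU145, and 3.6% rose and 3.73% fell in 769-P, so the counts are near the background. MOB1B, the cofactor that activates the LATS kinases, fell in 769-P, from 2.96 FPKM in the control to 1.47 with si1 and 1.5 with si2. Its log2 changes there were -0.68 and -0.66 (adjusted p = 0.693 by limma), and in DU145 -0.47 and -0.38. MOB1B has one of the lowest GC contents (34.1%, with 0.75% of genes lower), and with the GC trend removed it no longer passed 1.5-fold in 769-P (-0.35 and -0.29). ANKRD1, a target gene of YAP1, rose in 769-P, from 4.0 FPKM to 7.27 and 12.1. In DU145 ANKRD1 had 7.90 FPKM in the control, 2.54 with si1 and 11.4 with si2, so the siRNA libraries lay on opposite sides of the control.

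LATS2, the other LATS kinase, did not follow LATS1. It had 8.53 FPKM in the DU145 control, 12.0 with si1 and 9.43 with si2, and in 769-P 7.80, 14.0 and 7.75 (mean log2 changes 0.29 and 0.38). YAP1, the coactivator that the LATS kinases phosphorylate, had 19.7, 37.3 and 28.7 FPKM in DU145 and 9.78, 17.8 and 12.2 in 769-P. It was above the control in all 4 siRNA libraries, as were 20.1% of all genes, and it passed 1.5-fold with si1 alone (log2 change 0.89 in DU145 and 0.81 in 769-P, against 0.52 and 0.29 with si2). VGLL4, which competes with YAP1 for TEAD factors, was also high with si1, at 18.2 FPKM in DU145 and 16.5 in 769-P, against 6.63 and 6.22 in the controls and 6.71 and 9.20 with si2. TEAD2, a DNA-binding partner of YAP1, had 1.55, 5.81 and 2.62 FPKM in 769-P and 8.50, 13.7 and 10.3 in DU145. By limma 0 of 25 passed in either line, with 0 at an unadjusted p under 0.05 in DU145 and 1 (MOB1B) in 769-P (744 and 827 of all 11865 genes).

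DUSP7 (GRCh37 chr3:52082935-52090587, minus strand) differed more between the siRNAs than any other substrate in DU145. The control had 7.24 FPKM and si1 7.75, but si2 had 3.37. The si2 library had 46.6% of the control level and stood apart from the other 2 libraries. The siRNA mean was 5.56 ± 3.09 FPKM (SD, n = 2), the widest spread of the 5 substrates, and the log2 changes of 0.09 and -0.91 gave a mean of -0.41 (standard error 0.45, 95% interval -1.54 to 0.71, adjusted p = 0.903 by limma). Without si2 the change is 0.09 and without si1 it is -0.91, so on this scale the sign in DU145 rests on the si2 library. The DUSP7 transcript has 59.1% GC, more than 73.1% of genes. With the GC trend removed, si1 and si2 gave -0.14 and -1.10 in DU145 and -0.67 and -0.39 in 769-P. The part of GC content in these values was not tested further. In 769-P DUSP7 had 6.40 FPKM in the control, 4.37 with si1 and 5.17 with si2. Both were lower, by -0.46 and -0.26 on the log2 scale, with a 95% interval of the mean from -1.49 to 0.76 (adjusted p = 0.866 by limma).

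The ERK feedback list holds other dual-specificity phosphatases, Sprouty and SPRED inhibitors, kinases of the cascade and its immediate transcriptional outputs. Of its 25 genes 23 were expressed, and 0 rose and 0 fell in DU145, while 0 rose and 2 fell in 769-P. The median log2 change was 0.15 in DU145 and -0.06 in 769-P. Among all genes tested, 4.72% rose and 1.19% fell in DU145, and 3.6% rose and 3.73% fell in 769-P. DUSP6, the closest relative of DUSP7 and itself induced by ERK, fell in 769-P from 4.63 FPKM to 2.23 with si1 and 1.82 with si2 (log2 changes -0.80 and -0.99, adjusted p = 0.717 by limma). EGR1, an immediate early transcription factor downstream of ERK, fell from 1.65 FPKM to 0.741 and 0.712. Its log2 changes were -0.61 and -0.63, at an adjusted p of 0.72 by limma. With the GC trend removed DUSP6 and EGR1 were still past 1.5-fold with each siRNA. In DU145 DUSP6 had 9.98 FPKM in the control, 15.9 with si1 and 7.78 with si2, on either side of the control, and EGR1 had 5.21, 5.30 and 8.02.

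Other members of this list gave unequal values with the siRNAs. DUSP1, a nuclear phosphatase of stress kinases and ERK, had 32.6 FPKM in the 769-P control, 96.0 with si1 and 49.3 with si2, the latter just short of 1.5-fold (log2 change 0.58), and in DU145 26.6, 21.5 and 33.7. SPRY2, a Sprouty inhibitor of receptor signalling, had 12.6, 11.5 and 5.73 FPKM in 769-P and 13.3, 25.7 and 15.4 in DU145. DUSP4, another ERK phosphatase of the nucleus, had 4.0 FPKM in the DU145 control, 9.32 with si1 and 4.10 with si2, and it did not exceed 0.888 in 769-P. By limma 0 of 23 genes passed in either line, and 0 had an unadjusted p under 0.05 (744 of all genes did in DU145 and 827 in 769-P).

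SETD2 (GRCh37 chr3:47057918-47205603, minus strand) stayed within about 0.20 of its control on the log2 scale in all 4 siRNA libraries. The DU145 control had 6.11 FPKM, si1 6.31 and si2 6.49. The 769-P values were 5.39, 4.54 and 5.01. The siRNA libraries averaged 6.40 ± 0.128 FPKM (SD, n = 2) in DU145 and 4.77 ± 0.328 in 769-P, slightly above the control in the first line and slightly below in the second. The mean log2 change was 0.06 in DU145 (standard error 0.24, 95% interval -0.55 to 0.66, adjusted p = 0.977) and -0.15 in 769-P (standard error 0.24, 95% interval -0.75 to 0.46, adjusted p = 0.915), by limma. The intervals hold 1.5-fold at their lower or upper end, and a change of that size in SETD2 could not be told from none in these libraries. The sign turned in DU145 when the median of all genes was subtracted (-0.04), and in 769-P when the GC trend was removed (0.05).

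Of 20 genes that write, erase or read methylation of H3 lysine 36, 19 were in the tables and 18 were expressed. In DU145 2 rose and 0 fell, and in 769-P 0 rose and 0 fell, with median log2 changes of 0.12 and -0.08. For all genes tested the shares that rose and fell were 4.72% and 1.19% in DU145, and 3.6% and 3.73% in 769-P. The counts of this list turned with the scaling: 0 in DU145 and 2 in 769-P were called when median-centred, and 1 and 2 with quantile normalization. The genes that rose in DU145 are demethylases. KDM2B, which removes lower methylation states of lysine 36, had 3.95 FPKM in the DU145 control, 9.84 with si1 and 6.92 with si2, and 2.85, 6.32 and 4.62 in 769-P. KDM4B, which acts on trimethylated lysine 9 and lysine 36, had 6.22, 12.9 and 10.3 FPKM in DU145 and 4.60, 9.96 and 7.30 in 769-P. Both were above the control in all 4 siRNA libraries, and in 769-P both missed the call through si2 (log2 changes 0.55 for KDM2B and 0.57 for KDM4B). The adjusted p in DU145 was 0.786 for each by limma. Their GC content is 57.8% and 61.1%, and with the GC trend removed neither passed 1.5-fold with both siRNAs in DU145, since si2 gave 0.52 for KDM2B and 0.40 for KDM4B. By limma 0 of 18 genes passed, with 3 at an unadjusted p under 0.05 in DU145 (KDM2A, KDM2B and KDM4B) and 2 in 769-P (KDM2A and KDM4B), where KDM2A is named after its values were seen. Of all 11865 genes, 744 had an unadjusted p under 0.05 by limma in DU145 and 827 in 769-P.

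**Figure D4:**
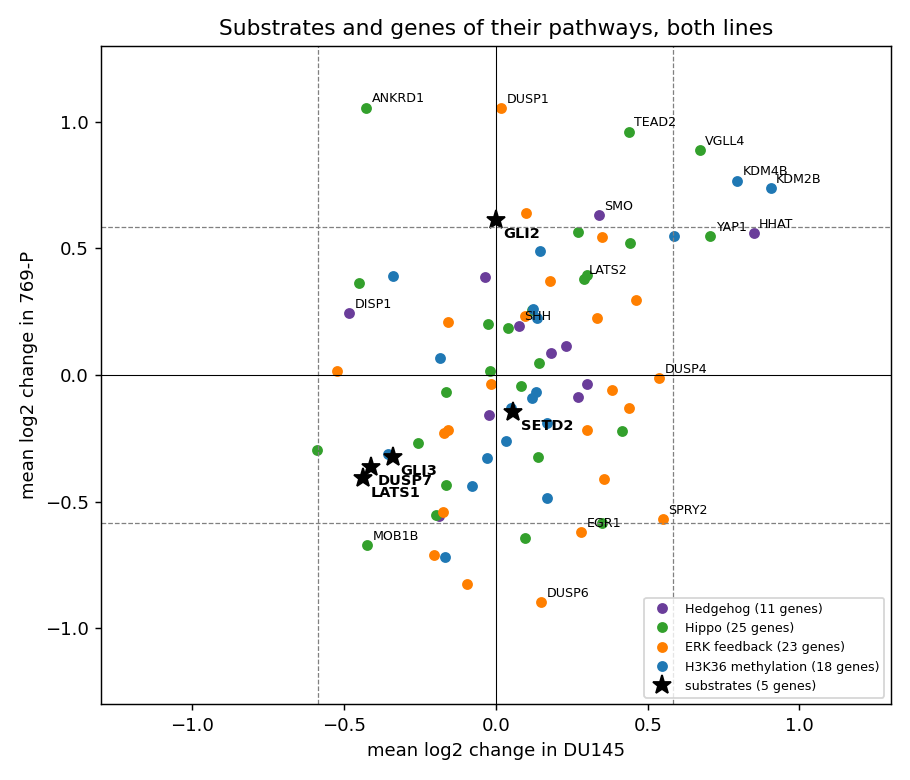
Mean log2 change of FPKM + 1 with the 2 siRNAs in DU145 (x axis) against 769-P (y axis) for the 5 substrates (stars) and the genes of the Hedgehog, Hippo, ERK feedback and H3K36 methylation lists that averaged 1 FPKM or more (coloured points). Dashed lines mark 1.5-fold. DUSP7, LATS1 and GLI3 lie in the lower left (-0.41, -0.44 and -0.34 in DU145), GLI2 sits at 0.00 in DU145 and 0.61 in 769-P, and KDM2B and KDM4B lie at the upper right. The DU145 value of DUSP7 is the mean of 0.09 and -0.91, and that of GLI3 comes from low values near background. LATS1 in 769-P was -0.16 with the GC trend removed.

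Whether the change of a substrate differed between the lines was tested as the interaction of knockdown and line. Taken as DU145 less 769-P, the changes differed by -0.61 for GLI2 (95% interval -1.65 to 0.42), 0.20 for SETD2, -0.05 for DUSP7, -0.03 for LATS1 and -0.02 for GLI3. By limma 0 of 5 passed, each at an adjusted p of 0.999, and 0 of 5 had an unadjusted p under 0.05, while 0.169% of all genes passed and 325 had an unadjusted p under 0.05. In the 4 lists 0 genes passed the interaction, and 1, STK4 of the Hippo list, had an unadjusted p under 0.05 (it is named after its values were seen). A GLI2 response in 769-P alone was therefore not shown, since the interval of the difference includes 0 and also includes a difference past 1.5-fold.

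The patterns of the substrates over the 6 libraries, with the mean of each line subtracted, were compared by Pearson correlation, as a description without a test. The points share libraries and depth, and with 4 degrees of freedom left many genes come close. DUSP7 was most like TRIM38, WHAMMP1 and CYP27A1 (r of 0.99 each), with 25 of 11864 genes at r of at least 0.95. SETD2 was most like FRMD4A, KITLG and POLE2 (61 genes), LATS1 most like POC5, CASC5 and GCH1 (66 genes), GLI2 most like LOC101927750, TRAF3IP1 and LOC100862671 (69 genes), and GLI3 most like TMEM66, CENPU and EXOC6 (141 genes). Among the substrates themselves, LATS1 and DUSP7 went together most closely (r = 0.784), and GLI2 and SETD2 were opposed (r = -0.928). How many genes reach such values was not counted. The GC trend was not removed for these correlations, and GLI2 has 61.6% GC against 43.6% for SETD2.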

How the data were processed

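RNA-Seq of 6 libraries was analysed. Per the study's methods the authors sequenced 100-bp paired-end reads. They checked and trimmed them (FastQC and cutadapt in the submitters' processing notes) and aligned them with TopHat2 to hg19 (up to 2 mismatches). The methods name Cufflinks for differential expression and do not say that it gave the deposited FPKM values. Versions and annotation are not given in the sources used here. The labels describe another library kit and RNA input than the methods do. FPKM keeps no read counts. A count test was therefore not possible, and the depth of a library is known only relative to another.

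Values under 1 symbol were summed, and log2(FPKM + 1) was used, which understates changes of low genes. Genes that averaged 1 FPKM or more were tested with limma 3.58.1 (R 4.3.3, 4 groups, eBayes with trend, 2 residual degrees of freedom, Benjamini-Hochberg adjustment). The fit was also run on simulated data with an added change larger than that of any substrate. Power for changes of their size was therefore not shown. A gene was called at 1.5-fold with both siRNAs. The substrates, the gene lists and the tests were chosen with earlier results of these data known. The text names SPOP, the substrates, LATS2, GLI1 and DUSP6, list genes that were called, the 2 with the largest mean change per list and line, Hedgehog ligands and outputs, and the 3 genes most like each substrate. Gene positions and GC content come from GENCODE for GRCh37 (88.8% of genes matched) and promoter windows from RefSeq. Other steps used pandas 2.3.3 and numpy 2.4.6 under Python 3.11.15. Alternatives were the pseudocount, filter, scaling, repeated symbols, background, fold, way of combining siRNAs, leaving out libraries, a replicate block, trend, small RNA genes and GC content. A search of the substrate proteins for the SPOP binding motif was planned and not run. The results for some marker genes are not reported here.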

Additional observations from a re-analysis of the deposited data

Results flagged for a closer look

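SETD2, SPRY2 and EGR1 are given here because both siRNA libraries of one line lay above the control and both of the other below it. SETD2 changed by 0.04 and 0.08 on the log2 scale in DU145 and by -0.20 and -0.09 in 769-P, a difference of 0.20 between the lines. SPRY2 changed by 0.90 and 0.20 in DU145 and by -0.12 and -1.01 in 769-P, a difference of 1.12. EGR1 changed by 0.02 and 0.54 in DU145 and by -0.61 and -0.63 in 769-P, a difference of 0.90. The interaction term of limma, with Benjamini-Hochberg adjustment, gave an adjusted p of 0.999 for each. These are 3 of the 22 substrates and named list genes examined, and 13.8% of all genes tested had opposite signs in the same way.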

How the results depend on the processing

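Of 312 values of the substrates under alternatives, 276 kept their direction and their side of the threshold, 5 lost the threshold and 31 turned sign, all of the latter without passing in either setting. Counting either siRNA gave 2 called substrates in DU145 and 1 in 769-P, the mean of the siRNAs gave 1 in 769-P, and leaving out a siRNA library gave 0 to 2 in DU145 and 0 to 1 in 769-P. Of the line differences, GLI3 included, 1 in place of 2 passed without a filter, with a mean of at least 5 FPKM (which leaves LATS1 and GLI3 without a value) and without any one siRNA library. For GLI2 the line difference had an adjusted p of 0.0833 without a filter (0.72), and was 0.63 to 0.81 without a siRNA library. In DU145 SETD2 turned to -0.055 with quantile normalization, -0.041 when median-centred and -0.021 with the GC adjustment and block. GLI2 in DU145 turned to -0.00099 (pseudocount of 0.1), -0.10 (quantile), -0.10 (median-centred), -0.25 (GC), -0.11 (GC with block) and -0.15 to 0.15 without a library, DUSP7 ranged from -0.91 to 0.087, and GLI3 turned to 0.038 with background subtracted. In 769-P SETD2 turned to 0.053 (GC) and 0.016 (GC with block). The difference of the changes turned for DUSP7 (0.037 with background subtracted, -0.55 to 0.45 without a library), SETD2 (-0.037 with GC and with GC and block), LATS1 (0.087 with background subtracted, -0.19 to 0.13 without a library) and GLI3 (0.12 quantile, 0.43 with background subtracted, -0.19 to 0.15 without a library). The line difference turned for DUSP7 (0.11 quantile, 0.026 median-centred, 0.21 with GC and with GC and block, -0.38 to 0.12 without a library) and LATS1 (0.10 quantile). The cause of these turns was not tested.

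Genes passing limma ranged over the alternatives from 0 to 678 in DU145 (16 as reported), 0 to 70 in 769-P (12), 0 to 326 for the interaction of line and knockdown (20) and 2763 to 5977 between the lines (4994), and genes called at a fold from 118 to 3351 in DU145 (701) and 145 to 3221 in 769-P (869). The siRNA number is shared by the lines and does not mark a common sample. The si2 minus si1 differences of the lines correlated at r = 0.27 across 11865 genes, with 1 pair of numbers per line. A replicate block for the siRNA number gave 18 passing genes in DU145 and 13 in 769-P. For the difference of the changes it gave 8, and 0 substrates passed in any of them. The search for the SPOP binding motif in the substrate proteins was not run. In the DU145 control GLI3 was near the background of low values, and its change in DU145 was -1.27 with a pseudocount of 0.1 FPKM. In the lists that pseudocount gave 4 in place of 2 called Hippo genes, 3 in place of 2 ERK feedback genes, 2 in place of 0 H3K36 methylation genes and 1 in place of 0 Hedgehog genes in 769-P. For the H3K36 methylation genes median-centring gave 0 in DU145 (2 as reported) and 2 in 769-P (0 as reported), and quantile normalization 1 and 2.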
